A study of Mus musculus with 7 samples.

Results

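The genes described are 10 members of the Ets family of transcription factors, Elf1, Elf2, Elf4, Ets1, Ets2, Elk1, Elk3, Elk4, Gabpa and Fli1, with the Etv genes set apart. The family was chosen by the measured difference between mutant and control arrays, in which Elf1 stood among the lowest genes, so that comparison of mutant with control is given for them as differences with intervals and as counts beside those of all probes, as a description from which no test is drawn. Every probe carrying one of the 10 symbols was used. The array table held 21 such probes of 25697, from 8 genes of 18138 symbols. Elf4 and Elk1 had no probe among them and were not analysed here.

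Ets proteins share a winged helix-turn-helix domain that binds DNA at a GGAA core, and the bases around the core and the protein partners separate one member from another. Elk1, Elk3 and Elk4 are ternary complex factors, which bind beside serum response factor and are switched by the Ras-MAPK cascade. GABPA is the DNA-binding subunit of GABP, which needs a GABPB partner, drives many genes of mitochondria, and is known to act on the Yap1 gene in mouse liver. Elf1, Elf2, Elf4, Ets1 and Fli1 are best known from blood and endothelial cells, and Ets2 as a target of Ras signalling.

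Expression was measured in labial cervical loops, the epithelial pocket at the root of the mouse incisor where the stem cells of the enamel organ lie. Controls were of genotype Yap/Tazf/f, with floxed Yap and Taz. Mutants were K14CreER;Yap/Tazf/f, in which a keratin 14 promoter drives a tamoxifen-dependent Cre. Mice of both genotypes were 8 weeks old when injected with 5 mg of tamoxifen for 2 days, and tissue was collected 48 hours after the last injection. Because the controls had no Cre, effects of the Cre itself and of losing Yap and Taz cannot be told apart, and a promoter active in keratin 14 cells leaves other cells of the dissected tissue with both genes.

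Each of 3 control and 4 mutant samples gave 1 Illumina array, spread over 2 chips that each held both genotypes (2 control and 2 mutant arrays on the first, 1 and 2 on the second). Between 13767 and 14752 probes were detected per array, at a detection p-value under 0.05. Nothing in the labels ties the samples to separate animals, so the spread between them may be technical. The number of arrays limits the precision. Among the markers of the tissue, the epithelial genes Krt14, Krt5 and Trp63 were detected on all 7 arrays. Yap1, the first targeted gene, had a normalised log2 mean of 7.27 ± 0.10 (SD, n = 3) in controls, against 6.64 ± 0.25 (SD, n = 4) in mutants. Wwtr1, which encodes TAZ, had means of 4.75 ± 0.20 (SD, n = 3) and 4.61 ± 0.26 (SD, n = 4). The sources used here do not say where these probes lie relative to the deleted exons.

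The promoters of Elf1 and Gabpa are shown because these were the only members with a probe on which every mutant array lay below every control array. Each window runs from 250 bases before the gene's start to 50 after it, read 5′ to 3′ on the gene's strand from RefSeq, build GRCm38.p6. Capitals mark the Ets core with a C or an A before it (CGGAAG or AGGAAG, also read on the other strand as CTTCCG or CTTCCT) and the TEAD core (GGAATG or CATTCC), through which YAP and TAZ are brought to DNA. Elf1 lies at chr14:79480944-79481243 on the plus strand and Gabpa at chr16:84834874-84835173 on the plus strand.
Elf1: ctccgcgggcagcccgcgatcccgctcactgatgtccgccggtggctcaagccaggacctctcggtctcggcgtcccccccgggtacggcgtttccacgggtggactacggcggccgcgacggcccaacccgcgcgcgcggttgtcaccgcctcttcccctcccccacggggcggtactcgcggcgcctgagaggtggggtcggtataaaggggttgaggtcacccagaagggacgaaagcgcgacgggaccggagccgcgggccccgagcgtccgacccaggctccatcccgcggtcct
Gabpa: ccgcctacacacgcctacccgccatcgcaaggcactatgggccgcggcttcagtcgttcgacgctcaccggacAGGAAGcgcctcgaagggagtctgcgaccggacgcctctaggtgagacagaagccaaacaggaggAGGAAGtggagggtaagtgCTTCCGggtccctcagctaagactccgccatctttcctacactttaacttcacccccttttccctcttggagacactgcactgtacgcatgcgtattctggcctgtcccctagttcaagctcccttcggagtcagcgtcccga

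No match to these letters lay in the Elf1 window, nor in that of a second Elf1 start. The Gabpa window held 3 Ets matches, 2 of AGGAAG and 1 of CTTCCG, whose first letters lie 177, 112 and 93 bases before the start. Promoters of 8 members were at hand, 13 windows in all, and 7 of the 13 held CGGAAG or AGGAAG on either strand, against 46.5% of 32851 promoter windows of the same length. None of the 13 held the TEAD letters, which 14.7% of all windows hold. The matches are descriptions of sequence and not of binding.

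Detection separated the family into measured and barely measured members. Elf1, Elf2, Ets2, Elk4 and the brightest probes of Elk3 and Gabpa were detected on all 7 arrays. In all, 18 of the 21 probes were detected on at least 3 arrays and entered the fit, from 7 genes, and 14 were detected on all 7. Fli1, a factor of megakaryocytes and endothelium, was detected on 0 of 7 arrays, with detection p-values of 0.145 to 0.865. Of 3 probes of Ets1, a factor of lymphocytes and growing vessels, 2 were detected on 1 array each, a mutant one both times, and the third on 6 of 7, with a highest detection p of 0.0915 in mutant replicate 4. The lowest Elk3 probe was detected on 3 arrays, 2 control and 1 mutant. Endothelial markers were likewise dim in this tissue: of 14 genes with a probe, 10 were not detected on 3 arrays, among them Pecam1, Kdr and Tek at 0 arrays.

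Elf1, which encodes a factor of lymphoid and endothelial genes, had 1 probe. On the normalised log2 scale it measured 6.08, 5.997 and 5.99 in control replicates 1 to 3, and 5.36, 5.53, 5.58 and 5.63 in mutant replicates 1 to 4. All 4 mutant arrays lay below all 3 control arrays, and mutant replicate 1 was the lowest. The controls averaged 6.02 ± 0.05 (SD, n = 3), against 5.52 ± 0.12 (SD, n = 4) for the mutants. With the chip as a term, the difference was -0.51 (SE 0.11, 95% interval -0.74 to -0.28), a level 0.703 times that of the controls, with -0.59 within chip 1 and -0.38 within chip 2. By this difference it was the 13th lowest of 14666 probes. In bulk tissue, fewer Elf1-expressing cells and less Elf1 RNA per cell cannot be told apart.

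Before normalization the Elf1 readings lay close together. The deposited intensities were 119, 115 and 129 in control replicates 1 to 3, and 99.4, 111, 117 and 115 in mutant replicates 1 to 4. On this scale the groups overlapped, since mutant replicate 3 lay above control replicate 2. The standard error over the 25 to 38 beads of an array was 2.61% to 3.95% of the intensity. The array medians ran from 80.8 in control replicate 2 to 86.2 in mutant replicate 3, and the Elf1 readings stood not far above them. The size of the difference moved with the background step, to -0.24 without background correction and -0.31 with a larger offset of 50. In the log2 values of the series matrix, which the authors normalised in their own way, it was -0.23.

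**Figure D1:**
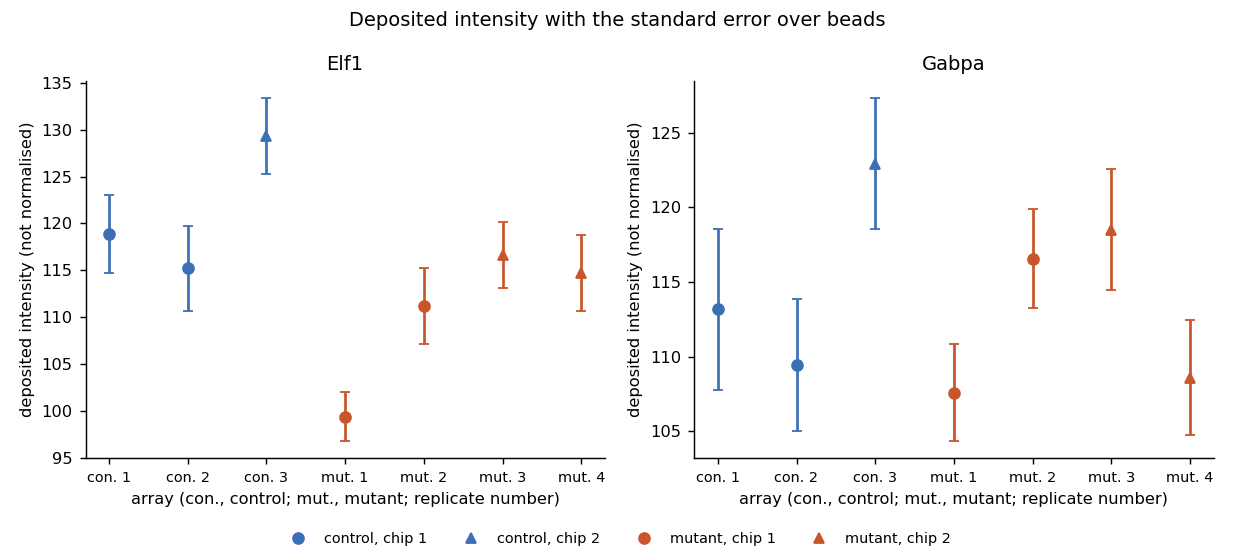
Deposited, unnormalised intensity of the Elf1 probe and the brightest Gabpa probe on each array, with bars for the standard error over beads; circles are chip 1 and triangles chip 2, and the axes do not start at 0. For Elf1 mutant replicate 1 is lowest at 99.4 and control replicate 3 highest at 129, while the other arrays lie between 111 and 119.

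With each array left out in turn, the Elf1 difference ran from -0.59 to -0.45. Its sign could not turn there, since every mutant array lay below every control array. The plot of Elf1 across settings gives each value with its interval, which reached just past 0 on the second chip alone (-0.77 to 0.0024), where only 3 arrays entered. The authors' deposited table, which holds log2 values of these 7 arrays but counts detection over up to 16, lists Elf1 with a mean log2 value of 6.96 in control and 6.73 in mutant samples and a q-value of 0.0244. In the authors' deposited table the other 17 Ets probes had q-values of 0.245 to 0.783. That table rests on the comparison through which Elf1 was picked and lends it no separate support.

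**Figure D2:**
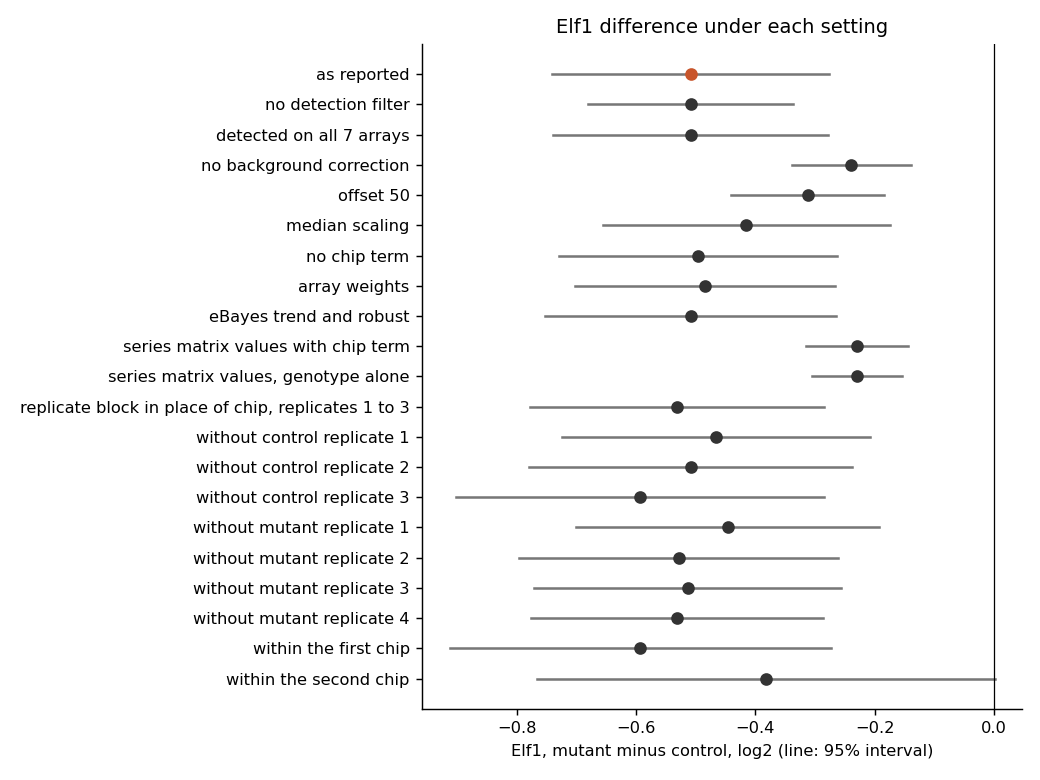
Elf1 difference, mutant minus control on the log2 scale, as reported (top) and under each other setting, with 95% intervals. Every estimate is negative, from -0.59 to -0.23, and the interval touches 0 for the second chip alone.

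Elf2, also called NERF, is the nearest relative of Elf1 and Elf4 and had 5 fitted probes. The brightest measured 8.47, 8.26 and 8.34 in control replicates 1 to 3, and 8.23, 8.31, 8.43 and 8.16 in mutant replicates 1 to 4. The groups overlapped, and the difference was -0.08 (SE 0.11). Another probe, listed under the same transcript accession in the authors' deposited table, measured 5.72, 5.77 and 5.75 in controls and 6.05, 6.15, 5.85 and 5.87 in mutants. Here every mutant array lay above every control array, with a difference of 0.26 (SE 0.11). The other Elf2 probes differed by 0.09, 0.03 and 0.09, so 4 of the 5 were positive and the brightest was not. The mean over the 5 was 0.078, and they gave Elf2 no common sign.

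Ets2, a factor phosphorylated in the Ras-MAPK cascade and needed in the trophoblast, had 1 probe. It measured 7.66, 7.59 and 7.70 in control replicates 1 to 3, and 7.53, 7.63, 7.45 and 7.43 in mutant replicates 1 to 4. In 3 of 4 mutant arrays it lay below all controls, mutant replicate 2 being inside their range. The difference was -0.13 (SE 0.11), with an interval of -0.36 to 0.10. Within the chips it was -0.05 (chip 1) and -0.26 (chip 2).

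Ets1 was close to background on its fitted probe, with 4.56, 4.56 and 4.50 in control and 4.68, 4.36, 4.39 and 4.32 in mutant arrays. Mutant replicate 1 was above all controls and the other 3 mutants below them. The difference was -0.08 (SE 0.11).

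**Figure D3:**
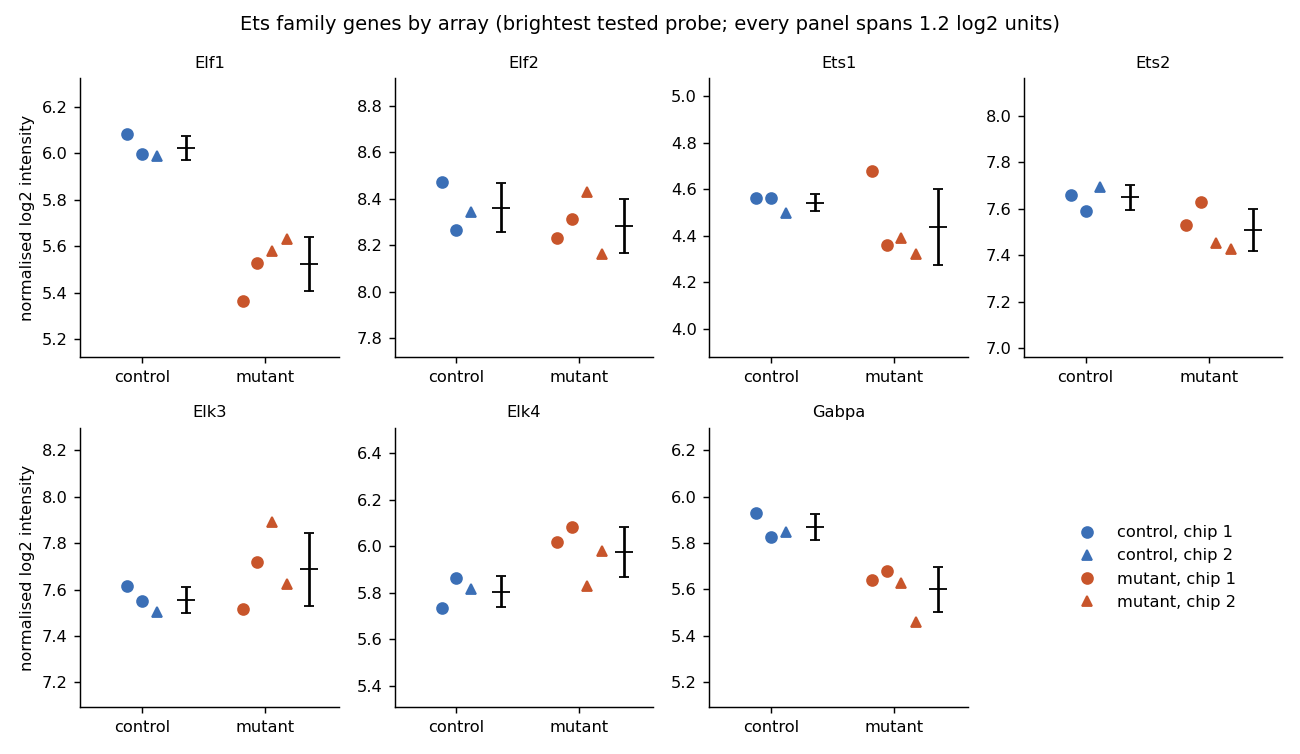
Normalised log2 intensity of the brightest fitted probe of each of the 7 fitted Ets genes, 1 point per array, with the mean and SD of each genotype in black; panels span equal ranges at different levels. The 2 genotypes are apart for Elf1 (controls from 5.99, mutants up to 5.63) and Gabpa, and overlap for Elf2, Ets1, Ets2, Elk3 and Elk4.

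The ternary complex factors measured were Elk3 and Elk4. The brightest probe of each was higher in the mutants, while the other Elk3 probes were lower. Elk3, also called Net, which represses serum response genes until it is phosphorylated, measured 7.62, 7.55 and 7.51 in control replicates 1 to 3 on its brightest probe. The same probe gave 7.52, 7.72, 7.89 and 7.63 in mutant replicates 1 to 4, of which 3 were above all controls. The difference was 0.12 (SE 0.12). The transcript accession that the authors' deposited table gives for this probe is not one that the GRCm38.p6 table lists for Elk3, whereas those of the other Elk3 probes are. Those other probes differed by -0.13 (SE 0.13) and -0.05 (SE 0.11).

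Elk4, also called SAP-1, had 4 fitted probes, and all 4 were slightly positive. The brightest measured 5.73, 5.86 and 5.81 in control and 6.02, 6.08, 5.83 and 5.98 in mutant arrays. Mutant replicate 3 lay within the control range and the other 3 mutants above it. The difference was 0.19 (SE 0.11, 95% interval -0.05 to 0.42), and the other Elk4 probes differed by 0.05, 0.03 and 0.03.

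Gabpa, the DNA-binding subunit of GABP whose promoter is shown above, measured 5.93, 5.83 and 5.85 in control replicates 1 to 3 on its brightest probe. Mutant replicates 1 to 4 gave 5.64, 5.68, 5.63 and 5.46, all below the controls, with mutant replicate 4 lowest. The difference was -0.25 (SE 0.11, 95% interval -0.48 to -0.03), with -0.22 within chip 1 and -0.31 within chip 2. As for Elf1, the deposited intensities overlapped (109 to 123 in control and 108 to 118 in mutant arrays). The other Gabpa probes, dimmer and detected on 6 and 5 arrays, differed by 0.01 (SE 0.12) and 0.10 (SE 0.14), so the lower value rests on 1 of 3 probes and the mean over the 3 was -0.05.

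**Figure D4:**
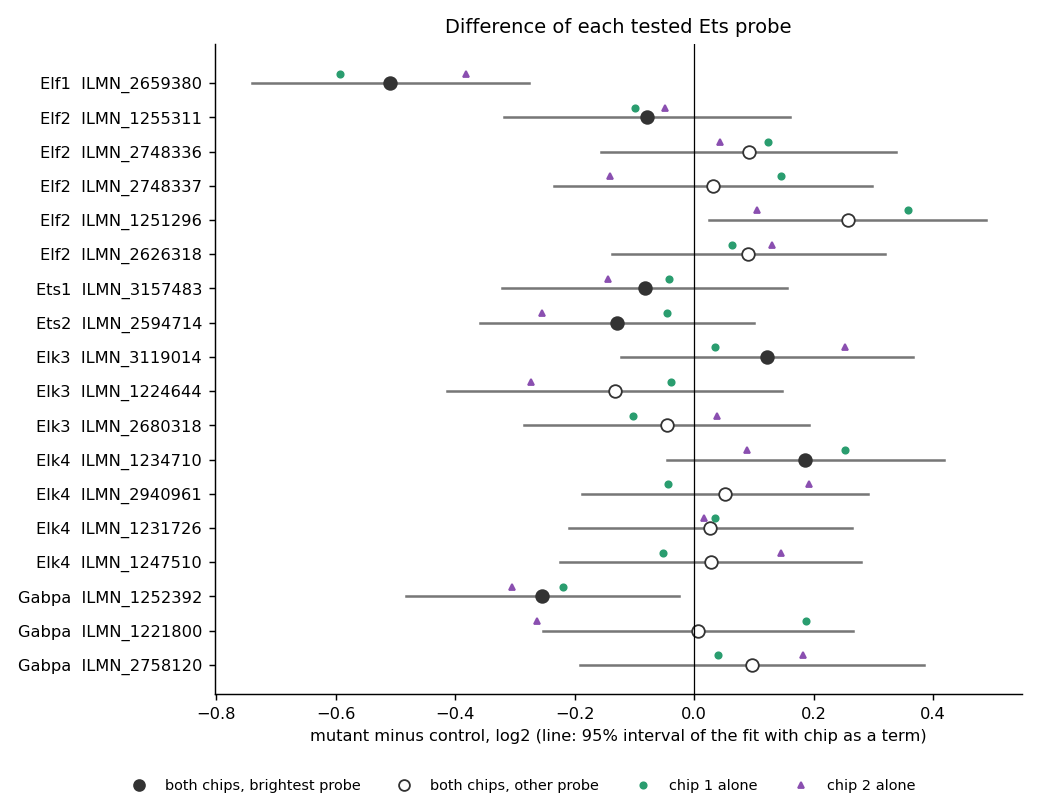
Difference of each of the 18 fitted Ets probes, mutant minus control on the log2 scale, with its 95% interval from the fit over both chips; small symbols above each line give the differences within chip 1 and chip 2. Elf1 lies farthest from 0 at -0.51, and the probes of Elf2, Elk3 and Gabpa lie on both sides of 0.

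Taking the brightest fitted probe of each gene, 5 of 7 Ets genes were lower and 2 higher in the mutant arrays, with a median difference of -0.08. Under median scaling 4 were lower, with Elf2 at 0.05 and Ets2 at -0.002. Elk3 counted as higher on the probe whose accession is not listed for it, while its other probes were at -0.13 and -0.05. Over all 10484 tested genes the median was -0.00026 and 50.1% were lower. Over probes, 7 of 18 were lower, against 49.9% of all, and 11 higher. Limma called 0 of the 18 at an adjusted p under 0.05, against 0.0614% of all 14666 probes (9 of them, 0.0341% higher and 0.0273% lower), and 3 of the 18 had an unadjusted p under 0.05, against 8% of all. On 3 of 18 probes the genotypes did not overlap, against 6.55% of all probes. Elf1 and a Gabpa probe were the 2 lower ones, against 3.27% of all probes, and an Elf2 probe the 1 higher, against 3.28%. Because Elf1 was the reason to look at the family, nothing is read from these counts. Within the chips, 13 of the 18 probes had the same sign on both and 5 opposite signs, 1 probe each of Elf2, Elk3 and Gabpa and 2 of Elk4. Of all probes 55% had the same sign on both chips.

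The chip was a contrast that the choice of genes had not used. Between the second and the first chip, limma called 0 of the 18 Ets probes and 0% of all probes at an adjusted p under 0.05. At an unadjusted p under 0.05 there was 1 of the 18, a probe of Elf2 that was 0.43 lower on the second chip (chip difference -0.43, SE 0.13, limma adjusted p = 0.349), against 9.09% of all probes. Elf1 differed by 0.07 (SE 0.11) between the chips, so its chip difference was within its error.

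Limma called no other gene of the Ets family. Of 14 with a probe, 7 were detected on at least 3 arrays, 2 higher and 5 lower, with a median difference of -0.03 that became 0.05 when arrays were scaled by their medians. The Etv5 and Etv4 genes, which fibroblast growth factors induce, differed by -0.06 (SE 0.11) and -0.03 (SE 0.12), Etv1 by 0.01 (SE 0.12), and the repressor gene Etv6 by -0.15 (SE 0.11). Erf, a repressor that ERK removes from the nucleus, differed by 0.13 (SE 0.14). The endothelial factor gene Erg, detected on 3 arrays, differed by -0.06 and the epithelial Elf3, on 4, by -0.01. None of the 7 had an unadjusted p under 0.05, against 8% of all probes. Elf5, another epithelial member, was detected on 0 arrays and Ehf on 1.

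Of 15 tested partners and cofactors, 5 were higher and 10 lower (50.1% of all genes were lower). None was called, and 1 had an unadjusted p under 0.05, against 8% of all probes. Their median difference was -0.09, and 0.04 under median scaling. The 1 was Runx2, the bone and tooth factor that pairs with Ets proteins, at 0.30 (SE 0.11, limma adjusted p = 0.491). A second Runx2 probe differed by 0.13 (SE 0.13). Gabpb1, the partner that GABPA needs to activate, differed by -0.24 (SE 0.12, limma adjusted p = 0.633), with a second probe at 0.0004. The gene of serum response factor, Srf, the DNA-binding partner of the Elk factors given here outside the naming rule, differed by 0.0012 (SE 0.11).

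The Ras-MAPK kinases and phosphatases upstream were split, with 11 of 21 higher and 10 lower and a median of 0.0016 (0.13 under median scaling), none called by limma. Hras1, now Hras, differed by 0.25 (SE 0.11) and the JNK kinase gene Map2k7 by -0.24 (SE 0.11), with other Map2k7 probes of opposite sign at 0.15 and 0.37. These 2 genes were the ones with an unadjusted p under 0.05, against 8% of all probes.

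Among 11 tested serum response targets of the Elk factors, 6 were higher and 5 lower, none called by limma, with a median of 0.0012 (0.14 under median scaling). The antiproliferative gene Btg2 differed by 0.46 (SE 0.11, limma adjusted p = 0.294) and Cyr61, a matricellular gene that is also a target of YAP, by -0.46 (SE 0.13, limma adjusted p = 0.375). These 2 had an unadjusted p under 0.05, as did 8% of all probes. For each of the 2 the genotypes did not overlap on the probe given, as for 6.55% of all probes. The other Cyr61 probes differed by -0.34 and -0.22. Of 14 tested targets of GABP, 5 were higher and 9 lower (50.1% of all genes were lower). Their median of -0.06 became 0.06 under median scaling. Limma called 1 of them, Yap1 itself, which fell by 0.68 (SE 0.12, limma adjusted p = 0.0443), against 0.0273% of all probes called lower. Yap1 is also a gene targeted by the Cre. At an unadjusted p under 0.05 there were also 2 higher genes, Cox6c of complex IV at 0.32 (SE 0.12, limma adjusted p = 0.486) and Sdhd of complex II at 0.27 (SE 0.13, limma adjusted p = 0.622), added after their values were seen. Yap1 lost its call when any 1 control array or mutant replicate 1, 2 or 3 was left out, and kept it without mutant replicate 4.

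**Figure D5:**
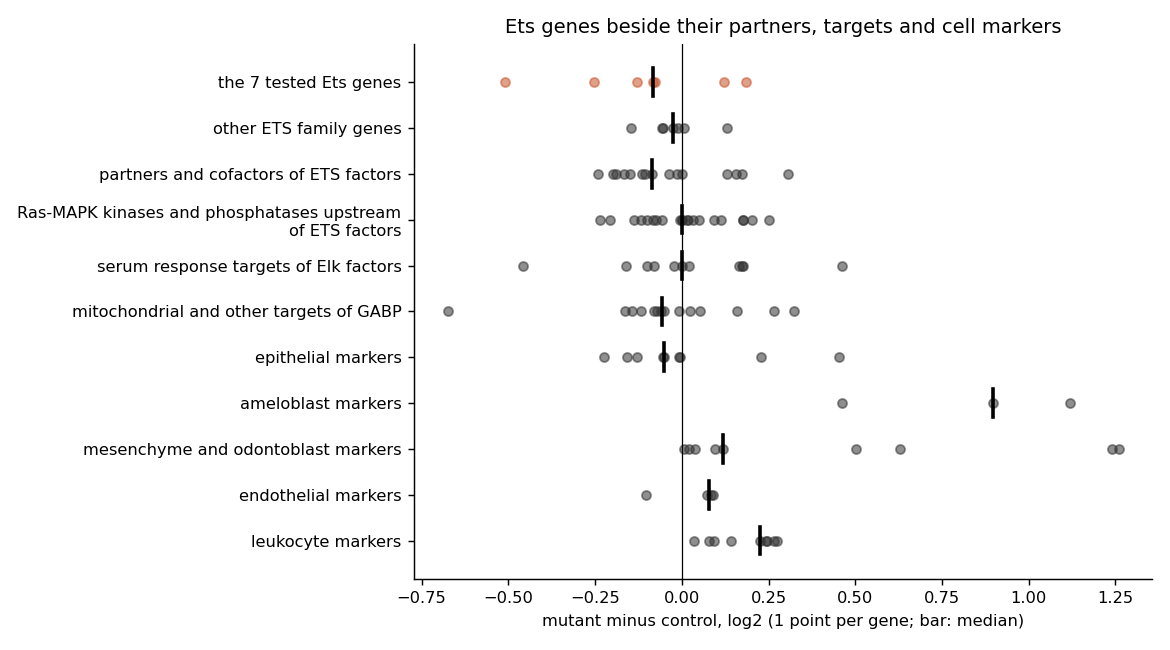
Difference of each fitted gene, mutant minus control on the log2 scale, for the 7 Ets genes (top) and the lists of related genes and cell markers, 1 point per gene with a bar at the median. The medians of the 5 family, partner, kinase and target lists lie between -0.09 and 0.0016, some of which turn positive under median scaling,, and ameloblast markers have the highest median.

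Limma called none of the cell type markers measured beside Elf1. Over all tested genes 50.1% were lower, and 8% of all probes had an unadjusted p under 0.05. On the brightest probe of each gene, all 9 tested leukocyte markers were higher in the mutants, none at an unadjusted p under 0.05. Their median was 0.22, led by Aif1 at 0.27 (SE 0.14, limma adjusted p = 0.647) and Cd53 at 0.27 (SE 0.16). Leaving out 1 array moved that median to 0.40 (control replicate 1), 0.09 (control replicate 2), 0.05 (control replicate 3) or 0.11 (mutant replicate 4). Their summed normalised intensity was 296 to 406 in control and 343 to 474 in mutant arrays, and the defining markers Csf1r, Cd3e and Itgam were detected on 1, 0 and 1 arrays. On other probes Aif1 differed by 0.18 and 0.35, Emr1 by 0.33 and Coro1a by -0.05. The 0.35 and 0.33 had an unadjusted p under 0.05. All 9 mesenchyme and odontoblast markers were higher too, 4 at an unadjusted p under 0.05, with a median of 0.12. Their sums were 541 to 680 in control and 657 to 1014 in mutant arrays. Col1a1 at 1.26 (SE 0.26) and Bglap2 at 1.24 (SE 0.41) differed most, while Col1a2, Dspp and Ibsp were at 0.006, 0.04 and 0.02. A second Ibsp probe was at -0.04, and Pdgfrb and Twist1 were detected on 0 arrays. Bglap2 differed by 0.26 within chip 1, which is also its value without control replicate 3, and by 2.71 within chip 2, and mutant replicate 2 lay below all controls at 4.78. The 3 tested ameloblast markers, with Mmp20 and Klk4 detected on 0 arrays, were higher, all 3 at an unadjusted p under 0.05, with sums of 375 to 463 in control and 428 to 1127 in mutant arrays, Ambn at 1.12 (SE 0.24) and Enam at 0.90 (SE 0.18). Ambn was at 0.57 within chip 1, again the value without control replicate 3, and 1.94 within chip 2, and Enam at 0.52 and 1.46. Of 9 epithelial markers 2 were higher and 7 lower, 2 at an unadjusted p under 0.05, with a median of -0.05 (0.07 under median scaling). Cdh1 was among the higher ones at 0.45 (SE 0.13), and the lower ones ran to -0.22 for Trp63 (SE 0.11). Sums were 6098 to 6172 in control and 6409 to 6720 in mutant arrays, but a sum mostly follows its brightest genes and not the count. Cldn4 was detected on 0 arrays. The 4 tested endothelial markers had sums of 104 to 115 in control and 105 to 115 in mutant arrays, with Egfl7 at -0.10 (SE 0.11) and Cldn5 at 0.09 (SE 0.11). Their part in the Elf1 and Gabpa values was not tested.

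The 5 genes whose profile over the 7 arrays came nearest to Elf1 were Wrn, Dpysl2, Fgd6, Mett11d1 and Calm2, among 11922 probes detected on all arrays. The measure was the root mean square difference between values centred on each probe's own mean, and it was 0.0777 for Wrn, a helicase of DNA repair, 0.0778 for Dpysl2, a microtubule regulator of axons, and 0.0978 for Fgd6, an activator of small GTPases. It was 0.0984 for Mett11d1, a methyltransferase-like gene, and 0.104 for Calm2, a calmodulin, beside an SD of 0.279 for Elf1 over the same arrays. The genes were picked for this likeness, and the measure is a description.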

How the data were processed

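Illumina bead arrays measured 7 samples. The authors deposited a mean bead intensity per probe with its bead standard error, bead number and detection p-value, not normalised per the file headers. The authors also deposited log2 values adjusted with ComBat for the array ID, per the table's name, and a comparison with means, a p-value, a q-value and a fold score. The score is the signed ratio of 2 mean log2 values, by its values. The steps before ComBat are not given in the sources used here.

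Intensities were background-corrected with limma's nec, which fits normexp to negative-control levels worked out from detection p-values, at an offset of 16, taken to log2 and quantile-normalised (limma 3.58.1, R 4.3.3). Probes detected at p under 0.05 on at least 3 arrays were kept, 14666 of 25697, from 10484 symbols. Limma (lmFit, eBayes) fitted genotype and chip, with 4 residual and 15.5 prior degrees of freedom, and Benjamini-Hochberg adjustment over all tested probes at 0.05. A gene with several tested probes was represented by the one of highest mean. The numbers of arrays and of beads limit the precision.

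All 10 members were named with every probe. Of each related list the called genes were named, or else the genes of smallest unadjusted p and largest difference, and for the other Ets family genes all those tested. A gene that this rule picks is not reported here. The members and lists were chosen with earlier results of these data known. Symbols are those of the table. Of 145 listed names 133 had a probe, and all 10 members stand in the RefSeq table of GRCm38.p6, from which promoters were read. Alternatives covered background, offset, scaling, filter, chip, array weights, the authors' log2 values and left-out arrays.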

Additional observations from a re-analysis of the deposited data

Results flagged for a closer look

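On 3 of the 18 fitted Ets probes a mutant array stood apart from the other 3 by Dixon's ratio, the gap to the nearest array over the group's range. Chance gives about 1 such array in 20 groups. For the Elf2 probe next in brightness to the brightest, mutant replicate 4 measured 6.26 against 6.57 to 6.62 (ratio 0.872). For the dimmest Elf2 probe mutant replicate 3 measured 5.06 against 4.89 to 4.91 (ratio 0.897). For the dimmest Elk3 probe mutant replicate 2 measured 4.53 against 4.23 to 4.26 (ratio 0.879). Mutant replicates 1, 3 and 4 were not detected on that probe (detection p 0.185 to 0.289), so their values lay at background. The arrays standing apart were 3 different ones, and none of the 3 probes was the one that stood for its gene.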

How the results depend on the processing

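Limma called no Ets probe under any of the 20 alternatives that were fitted. Elf1 was lower in the mutants under all 21 alternatives run. All its normalised mutant values lay below all its control values, so leaving out an array or fitting a single chip could not turn its sign. Changing the filter or the eBayes options left its estimate at -0.51 by construction. Its difference was -0.24 without background correction, -0.31 with an offset of 50, -0.23 in the series matrix with or without a chip term, -0.38 within the second chip alone and -0.59 to -0.45 with each array left out; the cause was not tested, though the second chip held 3 arrays. The count of lower Ets genes was 5 of 7, 4 of 7 under median scaling and 4 of 6 among probes detected on all arrays, and 5 with any array left out. The 4 under median scaling include Ets2 at -0.002. Gabpa moved with the processing too, to -0.16 under median scaling, -0.12 without background correction and -0.15 with an offset of 50. Elf2 turned to 0.05 under median scaling and 0.08 as a mean over its probes, and Elk3 to -0.02 as such a mean. Over all probes the 9 calls became 0 without the detection filter, without background correction, with an offset of 50 and in the series matrix with or without a chip term (1914, 1274, 1282, 1750 and 1845 at an unadjusted p under 0.05), 1 within the first chip, 13 within the second and 0 to 14 with each array left out. Leaving out control replicate 2 or mutant replicates 1 or 3 left 0 (1041, 1018 and 1197 unadjusted), control replicate 3 left 1, mutant replicate 4 left 4 and control replicate 1 gave 14. Without the chip term limma called 6. Median scaling called 9 higher and 0 lower, 5 of them shared with the 5 higher and 4 lower calls reported, and moved the median of all probes by 0.068. Of the related lists 1 gene was called (Yap1). This became 0 without the filter, without background correction, with an offset of 50, without the chip term, in both series matrix fits and within the first chip, 2 under median scaling (Ambn and Enam), 6 within the second chip, and 0 to 5 with an array left out (5 without mutant replicate 2, Yap1 not among them). With each array left out, the median difference ran from -0.12 to 0.001 for the other Ets genes, -0.11 to 0.005 for the partners, -0.03 to 0.05 for the kinases and -0.08 to -0.03 for the GABP targets. Whether shared replicate numbers pair the samples was not settled. Correlations of same-numbered deviations were -0.02, 0.16 and 0.15, against 0.11, -0.03 and 0.08 for other pairs on the same chip. The deviations were taken from genotype means alone, so chip and replicate number are mixed in them. With the replicate number as a block in place of the chip, over replicates 1 to 3, limma made 9 calls (6 shared). The Elf1 difference was then -0.53, by construction the same as without mutant replicate 4. Signal close to background limits Ets1, Fli1, the dim probes of Elk3 and Gabpa, and the dimmest probes of Elf2 and Elk4.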
